A study of Homo sapiens with 19 samples.

Results

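The interleukin-6 (IL6) cytokine family was followed through 9 genes: the ligands IL11, IL6 and LIF, the receptor chains IL6ST, IL6R, LIFR and OSMR, the transcription factor STAT3 and the inhibitor SOCS3. Members were the probe sets annotated to exactly 1 of these genes, which gave 18 of the 19071 probe sets with a single gene symbol, and 9 of 11963 named genes. None of the 18 was shared with another gene. The ligands of this family bind receptor complexes that contain the shared signalling chain gp130, encoded by IL6ST. Binding activates JAK kinases, which phosphorylate STAT3, and STAT3 induces SOCS3, which shuts the receptor complex down. IL11 is known to promote the formation of bone-resorbing osteoclasts, and IL6 is a mediator of inflammation and of the liver acute phase response.

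Messenger RNA of 19 cell lines was measured on Affymetrix arrays, with a single array per line. MDA-MB-231, an established line of human breast cancer cells, was the source of every line. The 4 strongly bone-metastatic lines were 1833, 2274, 2268 and 2269, and the 3 weakly bone-metastatic lines were 2293, 2295 and 2296. The 4 strongly lung-metastatic lines were 4142, 4173, 4175 and 4180, and the 3 weakly lung-metastatic lines were SCP21, SCP6 and SCP26. The lines 1833 and 4175 had each also given a hyper-ploid and a modal-ploid subline (1833-Hyper, 4175-Hyper, 1833-Modal and 4175-Modal), and the parental line MDA-MB-231 completed the set. The line titled 2296 carries the number 2297 in another of its labels and in the design text. All cells grew in DMEM with 10% FBS, antibiotics and selective drugs, and RNA was taken before confluence. The title of the series asks how a doubling of ploidy bears on metastasis. Each line is a separate subline with a single array, so every test measures the spread between sublines, not between cultures of one. RNA from a whole culture cannot tell fewer expressing cells from less RNA per cell.

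Deposited ratios were turned back into signals and scaled to a common array median of 143 signal units, and differences were taken on log2(signal + 16), a scale that understates changes of dim genes. A probe set was called dim on an array where it lay at or below that array's 40th percentile, between 71.5 and 93.8 units. Adjusted p-values come from limma with Benjamini-Hochberg adjustment over 9548 genes, each represented by its brightest probe set, with a threshold of 0.05. The markers of these breast cancer cells, VIM, KRT8, KRT18, CD44 and EGFR, were above the dim level on 19 of 19 arrays. Of 4 genes listed as low in this line, PGR was above it on 0 arrays and CDH1 on 1, but ERBB2 on 19 and ESR1 on 16. Among leukocyte markers PTPRC was dim on all 19 arrays, while CD14, CD3E and CSF1R were above the dim level on 14, 13 and 12. Their summed signal overlapped between strong and weak lines of both organs. Among endothelial markers CDH5 and VWF were dim on all 19 arrays, KDR was above that level on 2 and PECAM1 on 17. The summed signal of these 4 lay at 126 to 292 in strong bone lines and at 414 to 672 in weak bone lines, and the other way in lung, at 338 to 410 in strong and 158 to 287 in weak lines. PECAM1 itself fell in strong bone lines (log2 difference -1.60) and rose in strong lung lines (1.13). The summed fibroblast and osteoblast markers were 903 to 1075 in strong lung lines and 654 to 795 in weak lung lines. The part of these markers in the results on bone and lung lines, those of IL11, IL6, LIFR and OSMR included, was not tested. Bone lines, the parental line and the 1833 sublines formed one array set and lung lines with the 4175 sublines another. Labelled spike-in controls averaged 11.3 to 11.8 (log2, scaled) on parental and bone arrays, 10.2 to 11 on lung arrays and 10.1 to 10.4 on ploidy arrays. The ratio of 3′ to 5′ actin control signal, a sign of RNA integrity, was 0.753 to 0.952 in strong and 0.865 to 1.03 in weak bone lines, 0.994 to 1.14 in strong and 1.06 to 1.32 in weak lung lines, and 0.888 to 0.949 in ploidy sublines. Levels are therefore compared within an array set, and array set cannot be told apart from target organ.

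The promoters of IL11 and IL6 are shown because these ligands moved in opposite directions between bone lines. Each sequence is the 250 bases before the annotated start, from RefSeq (GRCh38.p14), written along the gene's strand. IL11 lies at chr19:55364382-55370463 on the minus strand and its window at chr19:55370464-55370713. IL6 lies at chr7:22727200-22731998 on the plus strand and its window at chr7:22726950-22727199. Capitals mark the AP-1 motif TGAGTCA in IL11 and an NF-kB motif (GGG, any 2 bases, TTTCC) in IL6, the motifs having been searched on both strands.
IL11: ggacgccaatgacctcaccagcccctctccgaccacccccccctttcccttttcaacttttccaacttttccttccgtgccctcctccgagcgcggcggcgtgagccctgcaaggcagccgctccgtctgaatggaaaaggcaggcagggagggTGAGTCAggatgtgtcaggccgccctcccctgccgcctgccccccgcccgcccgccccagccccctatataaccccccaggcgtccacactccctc
IL6: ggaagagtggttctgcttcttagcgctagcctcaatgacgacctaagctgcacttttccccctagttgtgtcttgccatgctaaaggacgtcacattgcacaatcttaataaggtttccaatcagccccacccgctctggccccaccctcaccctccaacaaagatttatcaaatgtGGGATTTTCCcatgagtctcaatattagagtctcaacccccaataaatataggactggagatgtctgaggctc
The AP-1 match in the IL11 window begins 96 bases before the start, and 4.2% of 35095 promoter windows of this length held at least 1. The NF-kB match in the IL6 window begins 73 bases before the start, and 1.73% of windows held that motif. Neither window held the other's motif or the STAT motif TTCNNNGAA, which 6.57% of windows held. Of the other members with a window in the table, LIFR held a STAT match in windows at 2 of its 3 starts, and none of IL6ST, IL6R, OSMR, SOCS3 and STAT3 held any of the 3 motifs. These are matches of letters only.

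Of the 9 members, 8 passed the filter on dim probe sets (above the 40th percentile on at least 2 arrays). IL6R, the ligand-binding chain for IL6, did not. Its probe sets ranged from 1.16 to 51.9 and from 1.25 to 24.4 units over the 19 arrays and were dim on all of them, so that no difference was tested. Between strong and weak bone lines, IL11 and LIFR rose and IL6 fell. These are 3 of 8 members tested, 2 of them higher and 1 lower, where 11.4% of all 9548 genes passed, 6.67% higher and 4.69% lower. Between strong and weak lung lines, OSMR fell, the 1 of 8 to pass, where 8.73% of all genes passed, 3.32% higher and 5.41% lower.

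**Figure D1:**
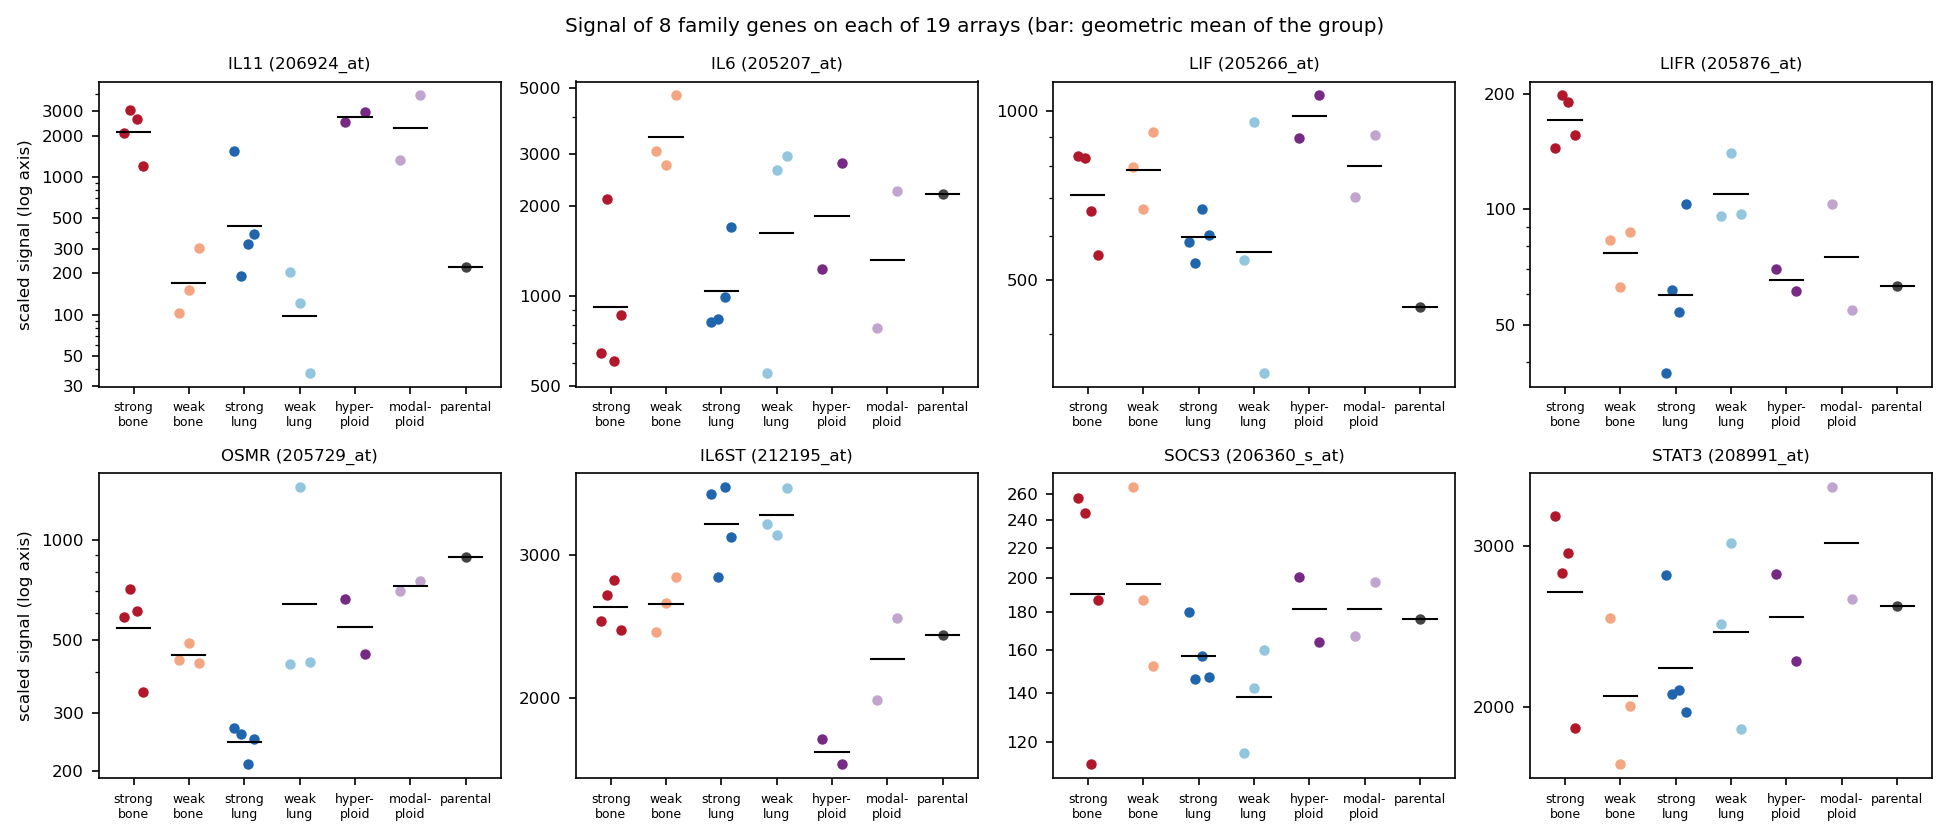
Scaled signal (log axis, signal units) of the 8 members that passed the filter, 1 point per array in each of the 7 groups, with a bar at the group's geometric mean. IL11 in the 4 strong bone lines (1200 to 3061) lay above all 3 weak bone lines (103 to 307), IL6 lay in the opposite order, and the IL11 signals of the 4 ploidy sublines lay at 1321 to 3925.

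On its brightest probe set IL11 varied more than any other member, 104-fold between its lowest array (SCP26) and its highest (4175-Modal). SCP26 was dim there, at 37.6 units, and on 206926_s_at IL11 varied 17.6-fold. The brightest IL11 probe set (206924_at) gave 2101, 3061, 2625 and 1200 units in the strong bone lines 1833, 2274, 2268 and 2269. In the weak bone lines 2293, 2295 and 2296 it gave 103, 151 and 307 units. Every strong line was thus above every weak line. Across all genes, 14.5% were higher and 12.9% lower in strong than in weak bone lines without overlap. IL11 thus differed by 3.52 on the log2 scale (SE 0.62, 95% interval 2.18 to 4.87), a fold of 11.5, with a limma adjusted p of 0.00316. The second probe set (206926_s_at) gave 600, 835, 723 and 568 units in the strong and 157, 202 and 270 units in the weak bone lines. Its log2 difference was smaller, 1.64 (SE 0.23), with a limma adjusted p of 0.000634 over 14349 probe sets, of which 10.9% passed, 6.72% higher. The first probe set passed under all 16 alternatives tried, with adjusted p from 0.000385 to 0.0217.

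Against the parental line, whose signal was 223, IL11 was 9.44-fold higher in 1833, 13.7-fold in 2274, 11.8-fold in 2268 and 5.39-fold in 2269, as ratios of single arrays. Only 17 of 9548 genes (0.178%) were over 4-fold higher in all 4 strong bone lines than in the parental line, and IL11 was among them. The weak bone lines lay on both sides of the parental line, at 0.462-fold in 2293, 0.678-fold in 2295 and 1.38-fold in 2296. There is a single parental array, so these ratios have no replicate check.

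In the strong lung lines 4142, 4173, 4175 and 4180, IL11 stood at 1547, 191, 327 and 388 units. In the weak lung lines SCP21, SCP6 and SCP26 it stood at 203, 122 and 37.6 units. The groups overlapped through 4173 and SCP21, and 4142 was far above the other strong lines. The log2 difference of 1.97 (SE 0.62) missed the threshold, with a limma adjusted p of 0.0672. The second IL11 probe set separated the groups, with 253, 207, 241 and 258 units in the strong and 141, 72 and 111 units in the weak lung lines. Among all genes, 8.41% were higher in strong lung lines without overlap. On that probe set the log2 difference was 1.08 (SE 0.23) and passed, with a limma adjusted p of 0.0108 over all probe sets, of which 8.04% passed, 3.21% higher. The first probe set passed in 5 of 16 alternatives, with an adjusted p of 0.0476 without SCP21 and 0.0449 without 4173, and it stood at 1.38 (adjusted p = 0.139) without 4142. Its highest limma adjusted p, 0.202, came without SCP26, the line in which it was dim. The bone difference exceeded the lung difference by 1.55 (95% interval -0.34 to 3.45), with a limma adjusted p of 0.289, so the data do not show that they differ.

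On the log2(signal + 16) scale, IL11 averaged 11.06 in strong bone lines (SD 0.59, n = 4) and 7.54 in weak bone lines (SD 0.73, n = 3), with the parental line of the same array set at 7.90. The parental line and the weak bone lines differed by less than the SD of the weak lines. In the other array set it averaged 8.85 in strong lung lines (SD 1.25, n = 4) and 6.87 in weak lung lines (SD 1.04, n = 3). The hyper-ploid and the modal-ploid group each hold 1 array of either set and averaged 11.41 (SD 0.17, n = 2) and 11.16 (SD 1.10, n = 2), apart by less than the SD of the modal-ploid group.

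IL6, detected by 1 probe set, went the other way in bone lines. It gave 645, 2124, 609 and 869 units in the strong bone lines 1833, 2274, 2268 and 2269, against 3071, 2747 and 4711 units in the weak bone lines 2293, 2295 and 2296. The groups did not overlap, as in 12.9% of all genes in this direction, and 2274 lay much nearer to the weak lines than the other strong lines did. IL6 fell, with a log2 difference of -1.87 (SE 0.54, 95% interval -3.03 to -0.70), 3.65-fold lower, and with a limma adjusted p of 0.0402. That call is close to the threshold and was lost in 8 of 16 alternatives. Left out 1 at a time, 1833, 2268, 2269, 2293, 2295 and 2296 each gave an adjusted p above it (0.0974, 0.0969, 0.0638, 0.0907, 0.0776 and 0.14), with log2 differences from -1.63 to -2.26 over all alternatives. The parental line had 2200 units, close to 2274 and above the other strong bone lines, which were at 0.293-fold (1833), 0.277-fold (2268) and 0.395-fold (2269) of it.

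IL6 did not separate the lung lines. The strong lung lines 4142, 4173, 4175 and 4180 had 823, 838, 993 and 1703 units, and the weak lung lines SCP21, SCP6 and SCP26 had 554, 2640 and 2957 units. SCP21 was the lowest of the 9 arrays in its set, while SCP6 and SCP26 were above every strong lung line. Their log2 difference was -0.65 (SE 0.54, limma adjusted p = 0.521), and without SCP21 it was -1.41 (adjusted p = 0.0733). The difference between bone and lung lines in the IL6 contrast was -1.22 (95% interval -2.87 to 0.42, limma adjusted p = 0.339).

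**Figure D2:**
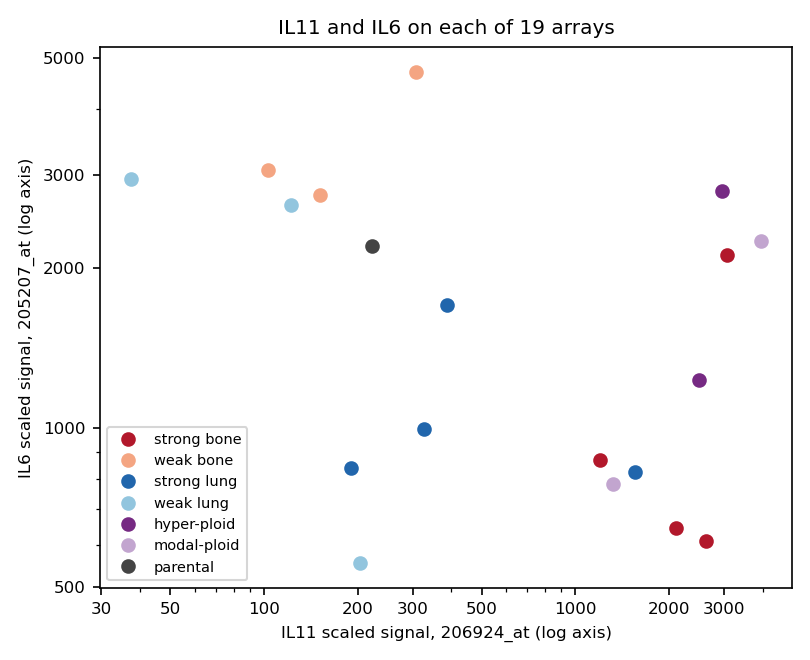
IL11 signal (206924_at, horizontal log axis) against IL6 signal (205207_at, vertical log axis), 1 point per array, 19 arrays in 7 groups. All strong bone lines but 2274 combine IL11 of 1200 units or more with IL6 of 609 to 869 units, the 3 weak bone lines combine IL11 of 103 to 307 units with IL6 of 2747 units or more, and line 2274 has 3061 units of IL11 and 2124 units of IL6.

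Over the 14 strong and weak lines, after each organ's mean was taken out, the log2 levels of IL11 and IL6 had a Pearson correlation of -0.68. This ranked IL6 at 9281 of 9547 genes by likeness to IL11. The 5 genes most like IL11 were TIPIN (0.96), KCTD5 (0.93), TRAM2 (0.93), DUSP1 (0.92) and TEAD4 (0.92). DUSP1 encodes a phosphatase that inactivates MAP kinases, and TEAD4 a DNA-binding partner of YAP. Among the members, STAT3 had 0.52, LIFR 0.27, IL6ST 0.14, LIF 0.12, SOCS3 -0.03 and OSMR -0.11. The points share the strong and weak grouping, the array sets and the array normalisation, so these values describe the 14 arrays and no more.

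LIF, a ligand that signals through LIFR and gp130, varied 3.13-fold over all arrays. It ranged from 554 to 833 units in strong bone lines and from 668 to 917 units in weak bone lines, and from 536 to 668 in strong lung lines against 341 to 957 in weak lung lines. Both pairs of groups overlapped. The log2 differences were -0.15 (95% interval -0.74 to 0.44) for bone and 0.079 (-0.51 to 0.67) for lung.

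LIFR, the receptor chain that pairs with gp130 to bind LIF, rose in strong bone lines. Its probe set gave 144, 198, 190 and 156 units in 1833, 2274, 2268 and 2269, against 83, 62.7 and 87.1 units in 2293, 2295 and 2296. The strong lines lay above the dim level and the weak lines below it, so the difference was at least 1.98-fold. The log2 difference was 1.01 (SE 0.24) with a limma adjusted p of 0.0181, lost without 2293 (rounded to 0.05), 2295 (0.0809) or 2274 (0.0502). The parental line had 63.2 units, a level like that of the weak bone lines.

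In lung lines LIFR lay the opposite way without passing the threshold. The strong lines 4142, 4173, 4175 and 4180 had 37.4, 61.6, 53.9 and 103 units, and the weak lines SCP21, SCP6 and SCP26 had 95.8, 140 and 97.2 units. Only 4180 among the strong lines reached the weak lines' level. The other strong lung lines were dim, and SCP21 and SCP26 lay just above the dim level, at percentiles 40.5 and 41.2 of their arrays. The log2 difference was -0.71 (SE 0.24, limma adjusted p = 0.0921), and without 4180 it was -0.92 (adjusted p = 0.0225). The bone difference minus the lung difference was 1.72 (SE 0.35, 95% interval 0.98 to 2.46, limma adjusted p = 0.00605), the one member of 8 to pass that test, where 11.6% of all genes did, 6.88% in this direction. It passed under all 21 alternatives that could be run, but its bone and its lung part both rest partly on dim signals.

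OSMR, which pairs with gp130 to bind oncostatin M, fell in strong lung lines. They had 270, 259, 210 and 250 units (4142, 4173, 4175 and 4180), against 421, 1445 and 428 units in the weak lines SCP21, SCP6 and SCP26. The groups did not overlap, as in 11.4% of all genes in this direction, but SCP6 stood far above the rest. Strong and weak lung lines differed by -1.33 (log2, SE 0.36), 2.51-fold lower, with a limma adjusted p of 0.0333. Without SCP6 it was -0.75 (adjusted p = 0.0808), and without 4142, 4173, 4175 or 4180 the adjusted p was 0.0587, 0.0703, 0.0891 or 0.0633.

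In bone lines OSMR had 584, 709, 608 and 347 units in the strong lines (1833, 2274, 2268 and 2269) and 435, 489 and 426 units in the weak lines (2293, 2295 and 2296). The single low strong line was 2269, and the groups overlapped (log2 difference 0.27, SE 0.36, limma adjusted p = 0.693). The bone minus lung difference was 1.59 (95% interval 0.51 to 2.67), with a limma adjusted p of 0.0559 that passed in 7 of 22 alternatives. The parental line had 888 units, above all bone lines.

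IL6ST, the shared gp130 chain, is represented by 5 probe sets that gave different answers, and their positions along the transcript are not used here. The actin 3′ to 5′ ratios given above overlapped between strong and weak bone lines, and their part in this disagreement was not tested. The brightest one, 212195_at, stood for the gene and barely moved. It ranged from 2428 to 2797 units in strong bone lines and from 2411 to 2817 units in weak bone lines (log2 difference -0.01, 95% interval -0.33 to 0.31). Another, 204864_s_at, gave 960, 813, 1029 and 712 units in 1833, 2274, 2268 and 2269, against 309, 329 and 274 units in 2293, 2295 and 2296. On it the strong bone lines were well clear of the weak ones, with a log2 difference of 1.47 (SE 0.26) and a limma adjusted p of 0.00338 over all probe sets that held in all 15 alternatives.

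The other 3 IL6ST probe sets also lay apart in the same direction. Of all genes, each on its brightest probe set, 14.5% lay apart in this direction. The log2 difference was 0.91 for 204863_s_at (limma adjusted p = 0.0365), 0.79 for 211000_s_at (0.0873) and 0.64 for 212196_at (0.106). Of the 5 probe sets, 2 passed, both higher, where 10.9% of all probe sets passed, 6.72% higher. The call of 204863_s_at was lost without any one of 1833, 2274, 2268, 2293, 2295 or 2296 (adjusted p 0.0624, 0.0956, 0.0945, 0.14, 0.0791 and 0.0718). The parental line had 746 units on 204864_s_at, within the range of the strong bone lines, and the weak bone lines were at 0.414-fold (2293), 0.441-fold (2295) and 0.368-fold (2296) of it.

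**Figure D3:**
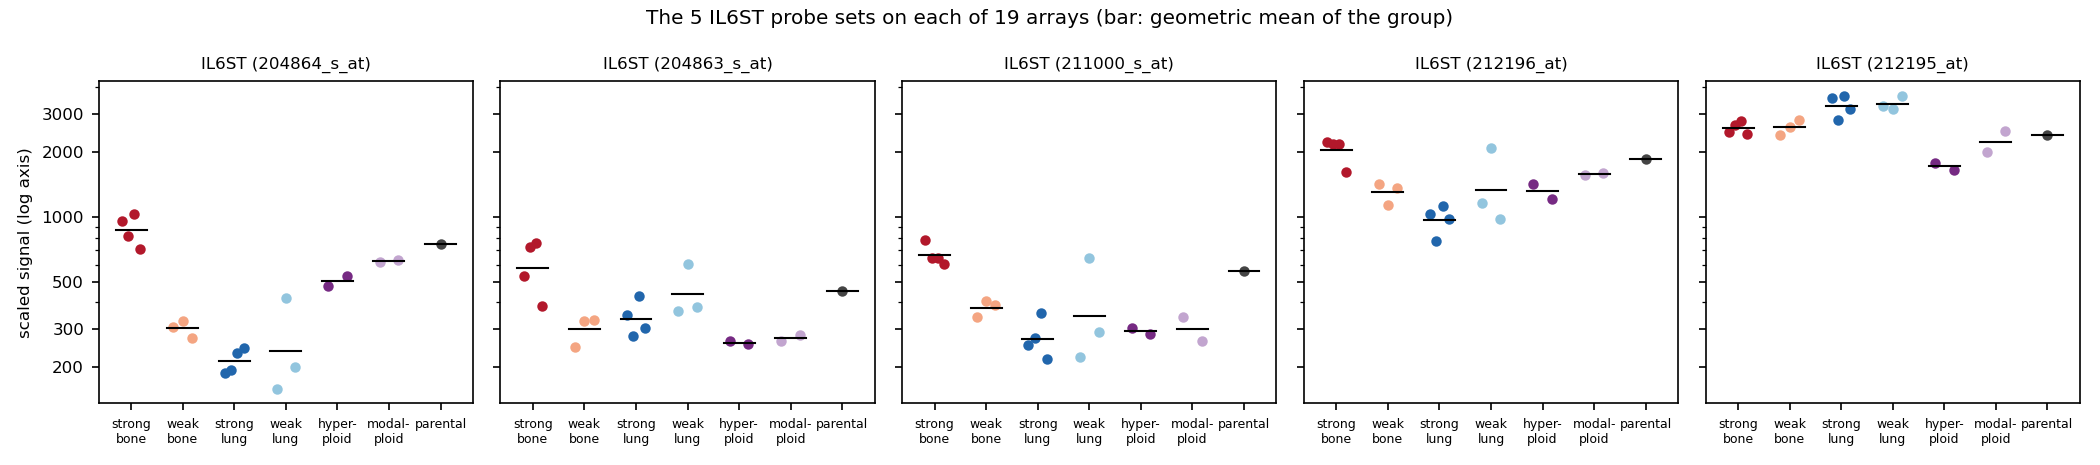
Scaled signal (log axis, signal units) of the 5 IL6ST probe sets, 1 point per array in each of the 7 groups, with a bar at the group's geometric mean. On 204864_s_at the 4 strong bone lines (712 to 1029) lie near the parental line (746) and above the 3 weak bone lines (274 to 329), while on 212195_at the bone groups cover the same range.

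None of the 5 IL6ST probe sets passed between strong and weak lung lines. On 204864_s_at the strong lung lines had 189 to 246 units, and SCP21, SCP6 and SCP26 had 159, 420 and 200 units. SCP6 was the highest lung line on 204864_s_at, 204863_s_at, 211000_s_at and 212196_at, but not on 212195_at. The bone minus lung difference was 1.62 for 204864_s_at (SE 0.37, limma adjusted p = 0.0133) and 1.28 for 204863_s_at (SE 0.36, adjusted p = 0.0372), 2 of the 5, where 11.4% of all probe sets passed, 6.96% in this direction. The second of these was lost in 11 of 21 alternatives, with adjusted p up to 0.0936 (without 2293).

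STAT3, the main transcription factor of the pathway, had 3239, 2804, 2949 and 1896 units on 208991_at in the strong bone lines 1833, 2274, 2268 and 2269. The weak bone lines 2293, 2295 and 2296 had 2503, 1729 and 2003 units. The strong line 2269 fell among the weak ones, and the log2 difference was 0.38 (95% interval -0.11 to 0.86, limma adjusted p = 0.321). Its other probe set, 208992_s_at, gave 1707, 2045, 1861 and 987 units in those strong lines and 1068, 912 and 856 units in the weak ones, again with 2269 among the weak lines (log2 difference 0.75, adjusted p = 0.191). In lung lines the differences were -0.13 and -0.14, with 4142 the highest strong line on both probe sets.

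SOCS3, the feedback inhibitor that STAT3 induces, did not separate any groups. On 206360_s_at it ranged from 112 to 257 units in strong bone lines and 152 to 266 in weak ones, and from 146 to 180 units in strong lung lines and 116 to 160 in weak ones. The log2 differences were -0.038 (95% interval -0.58 to 0.51) for bone and 0.16 (-0.38 to 0.71) for lung. A further probe set, 206359_at, ranged from 11.7 to 170 units, on both sides of the dim level, and did not pass in either organ, and 214105_at was dim on every array.

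**Figure D4:**
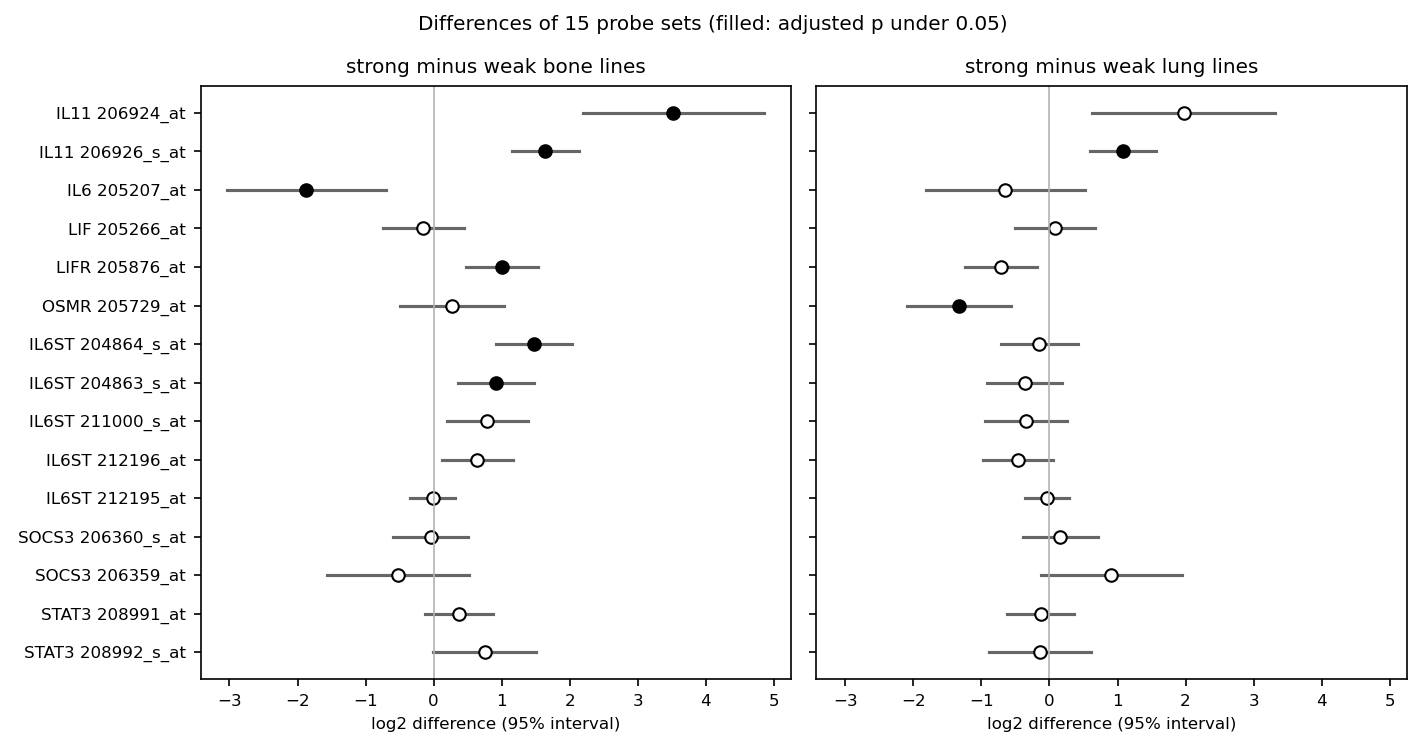
Log2 differences, strong minus weak, with 95% intervals for the 15 member probe sets that passed the filter, bone lines on the left and lung lines on the right, filled where the adjusted p over all probe sets is under 0.05. Bone differences pass for both IL11 probe sets, IL6, LIFR and 2 of 5 IL6ST probe sets, and lung differences pass for 1 IL11 probe set and OSMR.

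The hyper-ploid and modal-ploid sublines were compared within each line of origin. IL11 had 2493 units in 1833-Hyper against 1321 in 1833-Modal, and 2949 units in 4175-Hyper against 3925 in 4175-Modal. It was higher in the hyper-ploid subline of 1833 and lower in that of 4175, and the second probe set did the same, with 1090 against 559 and 864 against 1268 units. The mean log2 difference was 0.25 (95% interval -0.48 to 0.97). The 1833 difference exceeded that of 4175 by 1.32 (95% interval -2.19 to 4.83), so the data do not show that they differ. With 1 array behind each subline, the spread in that interval came from the strong and weak lines.

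None of the 8 members passed in the ploidy comparison, where 0.0105% of genes passed with limma, and none had an unadjusted p under 0.05. The smallest was that of IL6 (0.102), which had 1231 units in 1833-Hyper against 783 in 1833-Modal and 2803 in 4175-Hyper against 2251 in 4175-Modal. LIF was also higher in the hyper-ploid subline of both lines, while OSMR, STAT3 and all but 1 of the 5 IL6ST probe sets were lower in both. With 1 residual degree of freedom before moderation, small differences could not be seen in this design. Of all 9548 genes, 503 had an unadjusted limma p under 0.05 and 1 an adjusted one. The first count is near what a threshold of 0.05 gives where no gene differs.

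Set against the lines they came from, the 4175 sublines were much higher in IL11. The signal was 2949 units in 4175-Hyper and 3925 in 4175-Modal, against 327 in 4175 itself, ratios of 9.02 and 12. Only 6 of 9548 genes had a larger log2 difference for 4175-Hyper and 2 for 4175-Modal. The second IL11 probe set gave ratios of 3.58 and 5.26. Both sublines were over 4-fold higher than 4175 in 0.377% of genes, and IL11 was one of them.

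Some other members or single probe sets of them were also higher in the 4175 sublines than in 4175. IL6 had 2803 units in 4175-Hyper and 2251 in 4175-Modal, against 993 in 4175. OSMR had 453 and 751 units in those sublines, against 210 in 4175. On IL6ST 204864_s_at they had 529 and 628 units, against 232, and on STAT3 208992_s_at 1309 and 1405 units, against 624. The brightest STAT3 probe set, 208991_at, was closer, with 2247 and 2626 units against 2086. In turn, the brightest IL6ST probe set was lower in the sublines, with 1658 and 2512 units against 3638. So were IL6ST 204863_s_at, with 256 and 281 units against 430, and 211000_s_at, with 284 and 264 units against 357. On IL6ST 212196_at they had 1214 and 1591 units, against 1124. Over all genes, each on its brightest probe set, 3.48% were more than 2-fold higher and 2.61% more than 2-fold lower in both sublines.

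The 1833 sublines stayed near 1833 in IL11, with 2493 units in 1833-Hyper and 1321 in 1833-Modal against 2101 in 1833. LIFR had 70 and 103 units in these sublines against 144 in 1833, and IL6ST 204864_s_at had 478 and 615 units against 960. IL6 had 1231 and 783 units against 645. There is 1 array each and no test. Before scaling, the 4 ploidy arrays had trimmed mean signals of 317 to 355 against 490 to 491 on the other arrays, so array handling cannot be told apart from the step from line to subline.

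**Figure D5:**
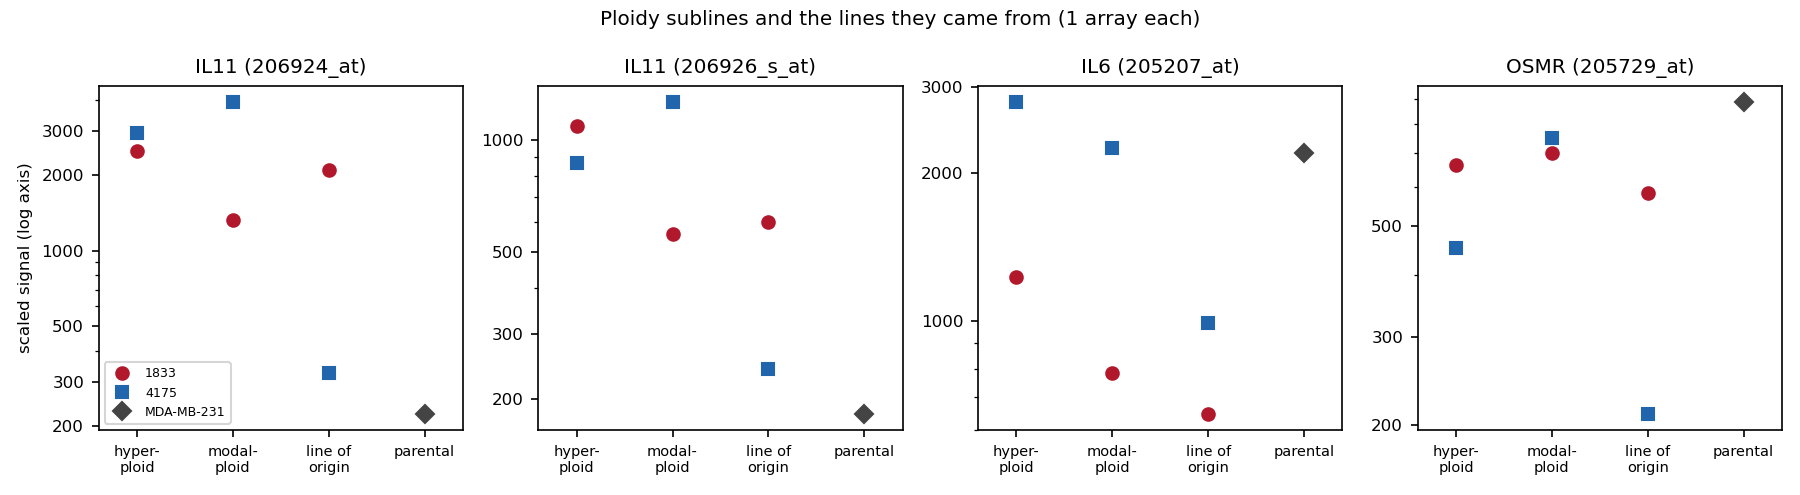
Scaled signal (log axis, signal units) of both IL11 probe sets, IL6 and OSMR in the hyper-ploid and modal-ploid sublines, their lines of origin 1833 (circles) and 4175 (squares), and the parental line (diamond), 1 array each. IL11 in both 4175 sublines (2949 and 3925 on 206924_at) lies far above 4175 (327), while the 1833 sublines (2493 and 1321) lie on either side of 1833 (2101).

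The remaining genes of the pathway were taken as lists. Of 8 other ligands and ligand subunits, 3 could be tested. EBI3, the shared beta subunit of IL27, fell in strong against weak bone lines (log2 -1.43, limma adjusted p = 0.047) and in strong against weak lung lines (-2.37, adjusted p = 0.00381). It was dim on all strong lines of both organs, at 9.01 to 11 units in bone and 4.86 to 7.2 in lung. The weak lines 2293 (84.6 units), 2295 (12.2) and SCP26 (42.7) were dim as well, and only 2296 (103), SCP21 (153) and SCP6 (137) were not. EBI3 was at least 1.06-fold lower in lung, with no bound above 1 in bone, and both falls rest partly on dim signals in weak lines. CTF1, which encodes cardiotrophin 1, fell in strong lung lines (-1.93, adjusted p = 0.00399, at least 2.04-fold lower). Of 4 other receptor chains, 3 were tested and none passed in either organ, with log2 differences from -0.34 to 0.44. The bone call of EBI3 was lost in 9 of 15 alternatives, among them without 2293 (0.177), without 2296 (0.196) and without each strong line (0.0724 to 0.0889).

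Among 17 kinases, adaptors and STATs tested, 2 rose and 1 fell in strong bone lines, where 6.67% of all genes rose and 4.69% fell. JAK2, a kinase bound to gp130, rose (log2 1.02, adjusted p = 0.0262, at least 1.2-fold), as did SOS1, an activator of RAS (0.95, adjusted p = 0.00829). STAT6, which acts downstream of IL4 and IL13, fell (-0.83, adjusted p = 0.0279). None of the 17 passed in lung lines. The call of JAK2 was lost without 2274, 2293, 2295 or 2296 (adjusted p 0.0716, 0.0778, 0.0623 and 0.0924) and that of STAT6 without 1833, 2293, 2295 or 2296 (0.056, 0.0657, 0.0745 and 0.107). The list's median was 0.016 in bone and 0.12 in lung, against 0.011 and -0.011 for all genes.

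Of 13 inhibitors of the pathway tested, 4 rose and 1 fell in strong bone lines, against 6.67% and 4.69% of all genes. SOCS2, an inhibitor best known from growth hormone signalling, had 639 to 741 units in strong bone lines against 77.8 to 112 in weak ones, a log2 difference of 2.62 (SE 0.20, limma adjusted p = 9.66e-06). SOCS6 (1.70, at least 1.89-fold), SOCS7 (1.18, at least 1.26-fold) and SOCS5 (1.06) rose as well. Among the strong bone lines, SOCS7 was dim in 1833 (76 units) and 2274 (77.2), and SOCS6 in 2269 (73.4). These 2 bounds therefore rest partly on dim signals in the strong lines. PTPN6, a phosphatase named here after its value was seen, fell (-0.64, adjusted p = 0.0197). In lung lines SOCS2 rose (0.78, adjusted p = 0.0278), the 1 of 13 to pass, where 8.73% of all genes passed. The list's median was 0.66 in bone and -0.38 in lung. The call of SOCS7 was lost without 2293, 2295 or 2268 (adjusted p 0.115, 0.0982 and 0.0543), that of SOCS5 without 2293 or 2296 (0.0615 and 0.0737), and that of SOCS2 in lung without SCP21, SCP6, 4142 or 4175 (0.092, 0.0723, 0.0587 and 0.0805).

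Of 18 tested genes known to respond to STAT3, 1 rose and 1 fell in strong bone lines, a share near the 11.4% of all genes that passed. MYC, a growth-promoting transcription factor, rose (log2 0.66, adjusted p = 0.0465), and CEBPD, an acute phase transcription factor, fell (-1.06, adjusted p = 0.0452). Both were lost when single lines were left out, any but 2269 for MYC (adjusted p up to 0.143) and any of the 7 for CEBPD (up to 0.15). In strong lung lines 2 rose and 3 fell, where 3.32% of all genes rose and 5.41% fell. The methyltransferase NNMT (-2.44, adjusted p = 0.00663), CEBPD (-1.81, 0.00304) and the adhesion molecule ICAM1 (-1.61, 0.0262) fell. The immediate early gene EGR1 rose (1.51, adjusted p = 0.0298), as did the survival factor MCL1, named after its value was seen (0.97, 0.0237). Without SCP6, EGR1 stood at 0.86 (adjusted p = 0.0665) and ICAM1 at -1.15 (0.11). EGR1 was also lost without 4173, 4175 or 4180 (0.0765, 0.0832 and 0.0617), and ICAM1 without any other line but SCP21 (0.0549 to 0.0591). The list's median was -0.028 in bone and 0.043 in lung.

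Acute phase genes, which IL6-type cytokines induce in liver cells, were taken as 16 genes, of which 14 had a probe set of their own and 7 passed the filter on dim probe sets. Of these 7, 4 fell in strong bone lines and none rose, where 4.69% of all genes fell. The list's median was -4.13 in bone and 0.38 in lung. SERPINA3 had 31.8 to 103 units in strong bone lines against 610 to 2190 in weak ones, and SERPINA1 34.4 to 116 units against 4557 to 5471. LCN2 had 54.5 to 179 units against 3546 to 4573. C3 was dim on all strong bone lines and at least 13-fold lower there. LCN2 and C3 also fell in strong lung lines, with 79.3 to 129 units against 1206 to 2314 and 9.34 to 180 units against 396 to 1228. SERPINA1 overlapped between lung groups, with 182 to 694 units in strong and 125 to 1465 in weak lines. SERPINA3 overlapped as well, with 64.7 to 225 units in strong and 21.7 to 67.8 in weak lung lines (log2 1.13, adjusted p = 0.182). IL6 and these genes were lower in the same bone lines, and a link between them was not tested.

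Of 12 tested AP-1 and TGF-beta transducers, which are known to act at the IL11 gene, 2 rose and 1 fell in strong bone lines, where 6.67% of all genes rose and 4.69% fell. SMAD2 had 1008 to 1443 units in strong against 500 to 515 in weak bone lines (log2 1.24, SE 0.19, limma adjusted p = 0.00143). SMAD4, the partner of the receptor-activated SMADs, rose too (1.01, adjusted p = 0.00288), and SMAD3 fell (-1.03, adjusted p = 0.00724). In lung lines SMAD2 went the other way, with 489 to 560 units in strong against 968 to 1657 in weak lines (-1.15, adjusted p = 0.00224). No AP-1 subunit passed within either organ, but for FOSL2 the bone difference exceeded the lung difference by 1.87 (adjusted p = 0.0122), with 0.94 (adjusted p = 0.0591) in bone and -0.93 (adjusted p = 0.0704) in lung. FOSL2 is named here after its values were seen. The list's median was 0.30 in bone and -0.13 in lung. These lists were written with earlier results of these data known, so their counts describe the lines and are not independent evidence.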

How the data were processed

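The deposited file held linear ratios, from 0.00115 up to 361. How the authors made them is not given in the sources used here. Per the labels' protocols, biotin-labelled cRNA from total RNA of each line was hybridised. In the 10 arrays of the first set the median over arrays was 1 for 91.6% of the 22283 probe sets and in the 9 of the second for 0.0224%, so the authors' ratios were treated as 2 separately divided sets. The ratios were whole multiples of a step of 0.1 signal units once divisors were taken out (tolerance 0.01 steps at low values), which recovered 22247 probe sets (99.8%) and 0 of 4000 shuffled ones per set. 36 probe sets were left out. Signals were scaled to a common median and tested as log2(signal + 16) with R 4.3.3 and limma 3.58.1 (lmFit and eBayes, two-sided) on the 14 strong and weak lines with 1 mean per group. The hyper-ploid and modal-ploid comparison used 4 arrays and blocked on line of origin. Both fits and the recovery were tested on simulated data. Genes were named by GEO's platform annotation: 19071 probe sets had 1 symbol and 1043 several, and 19059 matched RefSeq with 0 symbols differing. All 9 members were described. From each list up to 4 genes were named per organ, those of largest difference among the genes that passed, and the 5 genes most like IL11. Members and lists were chosen with earlier results of these data known. The number of arrays limits the precision. Alternatives covered scaling, offset, filter, probe set choice, the deposited ratios, the fit and leaving out each line.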

Additional observations from a re-analysis of the deposited data

Results flagged for a closer look

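In groups of 4 lines, 1 line stood apart from the other 3 by Dixon's ratio in 3 of 36 groups tested, where chance gives about 1 in 20. The line 4142 was the highest strong lung line for STAT3 on both probe sets, at 2790 units on 208991_at and 1011 units on 208992_s_at. The line 2269 was the lowest strong bone line for IL6ST on 212196_at, at 1617 units. By rank on its own array 2269 was close to the other 3, at percentile 91.6 against 92.7 (1833), 92.2 (2274) and 91.8 (2268). Before scaling, the median signal of its array was 162, against 136, 131 and 126 on theirs. The part of the scaling in this flag was not tested.

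The strong minus weak difference itself differed between organs (bone difference minus lung difference, limma adjusted p under 0.05) for LIFR at 1.72 and for IL6ST at 1.28 on 204863_s_at and 1.62 on 204864_s_at. It did so for 18 further genes of the pathway and marker lists, where 11.6% of all genes passed. It was positive for SOCS6 (2.64), SOCS2 (1.84), SOCS7 (1.78), PTPN2 (1.46), PIAS2 (1.34), PTPN1 (1.17), SOS1 (1.47), NNMT (2.89), MYC (1.18), SMAD2 (2.40), FOSL2 (1.87), SMAD4 (1.57) and CTF1 (2.19). It was negative for SERPINA1 (-6.22), SERPINA3 (-5.26), PECAM1 (-2.72), TGFBR2 (-1.42) and SMAD3 (-0.98). Of the genes tested per list, 6 of 13 inhibitors, 2 of 18 STAT3 response genes and 2 of 7 acute phase genes passed. Of 12 AP-1 and TGF-beta transducers, 3 passed as positive and 2 as negative. Further, 1 of 17 kinases, adaptors and STATs, 1 of 3 other ligands and 1 of 2 endothelial markers passed, and none of the remaining lists. With single lines left out, 13 of the 18 passed each time. The call was lost without 2293 or 2295 for SOCS7 (adjusted p up to 0.0535), and without any of 6, 7, 9 and 11 of the 14 lines for PIAS2, PTPN1, PTPN2 and SMAD3 (up to 0.07, 0.0675, 0.0893 and 0.105). No explanation for these differences was tested.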

How the results depend on the processing

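Of 1769 recomputed values of single genes and probe sets, 1586 kept their direction and their side of the threshold, 130 were no longer past it, 23 newly passed and 30 changed sign, none of which had passed. With single lines left out, the genes passing numbered 540 to 1254 (1085 with all) for bone, 501 to 1000 (834) for lung and 780 to 1402 (1110) for the bone minus lung difference, and the members 1 to 2 (3), 0 to 2 (1) and 1 to 2 (1). With only the 7 lung lines in the fit 439 genes and 0 members passed. In lung, 2 members passed with trimmed mean scaling, offset 64 or the stricter filter, and in the bone minus lung difference 2 passed with trimmed mean scaling, quantile normalisation or offset 64. In the ploidy comparison, 1 gene became 0 with trimmed mean scaling, quantile normalisation, offset 4, no filter, the deposited ratios or no line block, and 16 with the stricter filter; without either pair it was 0 to 1. Uncalled values that changed sign with trimmed mean scaling and quantile normalisation were IL6ST in lung (0.031 and 0.011) and in the bone minus lung difference (-0.12 and -0.12), and IL6ST 211000_s_at in the ploidy comparison with quantile normalisation (0.0032). Over single lines left out, bone differences ran from -0.067 to 0.044 for IL6ST and -0.21 to 0.19 for SOCS3. Lung differences ran from -0.27 to 0.45 for LIF, -0.084 to 0.038 for IL6ST, -0.31 to 0.03 for STAT3, -0.42 to 0.24 for IL6ST 204864_s_at, -0.56 to 0.31 for STAT3 208992_s_at and -0.64 to 0.083 for IL6ST 211000_s_at. The bone minus lung difference ran from -0.60 to 0.12 for LIF, -0.048 to 0.078 for IL6ST and -0.37 to 0.032 for SOCS3. With either ploidy pair left out, IL11 ran from -0.41 to 0.91, IL11 206926_s_at from -0.55 to 0.94, LIFR from -0.47 to 0.13, SOCS3 from -0.24 to 0.25, SOCS3 206359_at from -0.38 to 0.12 and IL6ST 211000_s_at from -0.17 to 0.10. The causes were not tested. No paired analysis was possible because replicate numbers in the bone and lung groups were given in accession order, and the ploidy pairs were already blocked by line.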
